A study of Mus musculus with 8 samples.

Results

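Receptors and bridging molecules of dead-cell uptake, 10 genes in all, were followed in mouse bone marrow-derived dendritic cells (BMDC) that had or had not engulfed ferroptotic cancer cells. They are the TAM receptors Mertk, Axl and Tyro3, the bridging molecules Gas6, Pros1 and Mfge8, and the receptors Stab1, Msr1, Lrp1 and Timd4. They were chosen by name, and all 10 were found by symbol among the 55487 genes of the count table. The BMDC were wild-type cells of C57/bl6 mice (C57BL/6J in the methods), grown in GM-CSF for 10 days. According to the methods the donors were female and 6 to 8 weeks old, and GM-CSF was given at 20 ng/ml. BMDC-fer had been cultured for 4 h with human Jurkat cells killed by ML162 (0.5 µM, 14 h), a compound that triggers ferroptosis, and were then sorted for cells carrying the cargo. The controls were untreated BMDC. There were 4 libraries in each group. The sources call them independently collected samples but do not tie them to animals, and whether the untreated cells were sorted is not given in the sources used here. Uptake, co-culture and sorting therefore cannot be told apart.

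Phagocytes recognise many dead cells by phosphatidylserine, a membrane lipid that can become exposed when cells die. Some receptors bind it directly, among them stabilin-1 (Stab1) and TIM-4 (Timd4). Others rely on soluble bridges. GAS6 (Gas6) and protein S (Pros1) link the lipid to the TAM receptor tyrosine kinases, and MFG-E8 (Mfge8) links it to integrins. Scavenger receptors such as SR-A (Msr1) bind modified lipoproteins and cell debris, and LRP1 (Lrp1) is a large endocytic receptor that recognises calreticulin and many other ligands. For ferroptotic cells, the paper on these data found no exposure of phosphatidylserine until the cell membrane was permeabilized. It also reported that BMDC took up terminal ferroptotic cells independently of phosphatidylserine and of calreticulin. Those were MCA205 cells and not the Jurkat cells used here.

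Msr1, Stab1 and Tyro3 rose in BMDC-fer, by 2.24-fold, 2.63-fold and 2.12-fold. None of the other 6 members that could be tested passed in either direction, and Timd4 was all but absent. Libraries were compared by edgeR's quasi-likelihood test, with p-values adjusted over 15411 genes by the Benjamini-Hochberg method. Calls required both an adjusted p no higher than 0.05 and a log2 fold change of at least 0.58 in size. Of the 9 tested members, 3 were called higher and 0 lower, and 6 were not called. Over all tested genes 9.38% were called, 3.47% higher and 5.91% lower. With the replicate number as a block, again 3 members were called higher and 0 lower, against 4.85% and 8.13% of all genes. The groups did not overlap for 3 of the 9, all higher in BMDC-fer, against 22.9% of all genes (11.3% higher and 11.6% lower). At an unadjusted p under 0.05, 4 members were higher and 0 lower, against 2118 higher and 2494 lower of all 15411 genes. DESeq2 also called 3 members higher and 0 lower, against 863 and 1398 of all genes. The median log2 fold change was 0.49 over the 9 members and 0.001 over all tested genes. Scaled by library size alone, 3 members were again called higher, while the share of higher genes among all calls was 20.3% in place of 37%.

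Replicates 1 and 2 lay apart from replicates 3 and 4 in both groups, so changes are also given within pair 1-2 and within pair 3-4. Markers of cell types, dendritic cells included, moved as well. The summed level of 10 dendritic cell markers was 2620 to 5400 CPM (counts relative to the TMM-scaled library total) in BMDC and 1530 to 2460 CPM in BMDC-fer. In CPM the largest change within this sum was that of H2-Ab1, from a mean of 2110 to 688 CPM (edgeR adjusted p = 0.104). Of the 10 markers, Flt3, Itgae and Dpp4 were called lower and 7 were not called, while with the replicate block 7 were called lower and Clec9a higher. For 10 macrophage and monocyte markers the sum was 1730 to 2110 CPM in BMDC and 2200 to 2280 CPM in BMDC-fer. Here the largest change in CPM was that of Csf1r, from a mean of 866 to 1140 CPM, which was not called (edgeR adjusted p = 0.111). C5ar1 was called higher and Adgre1 lower, and Vsig4 was at 3 counts or fewer in every library. The 10 neutrophil markers summed to 52.8 to 273 CPM in BMDC and 21 to 58.6 CPM in BMDC-fer, with 5 called lower, or 9 with the block. The 10 T-cell markers summed to 5.71 to 9.36 CPM in BMDC and 1.1 to 2.25 CPM in BMDC-fer, and the T-lineage genes Bcl11b and Rag1 were at 3 counts or fewer in every library. The mast cell and basophil sum was 32.7 to 64.9 CPM in BMDC and 14.5 to 33 CPM in BMDC-fer, and the B-cell sum was at most 1.47 CPM. Of the markers that could be tested, 2 of 3 T-cell genes were called lower (3 with the block), and 0 of 3 mast cell and basophil genes (1 with the block). The part of these shifts in the results that follow was not tested. In bulk RNA, fewer cells of a type and less RNA per cell cannot be told apart.

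**Figure D1:**
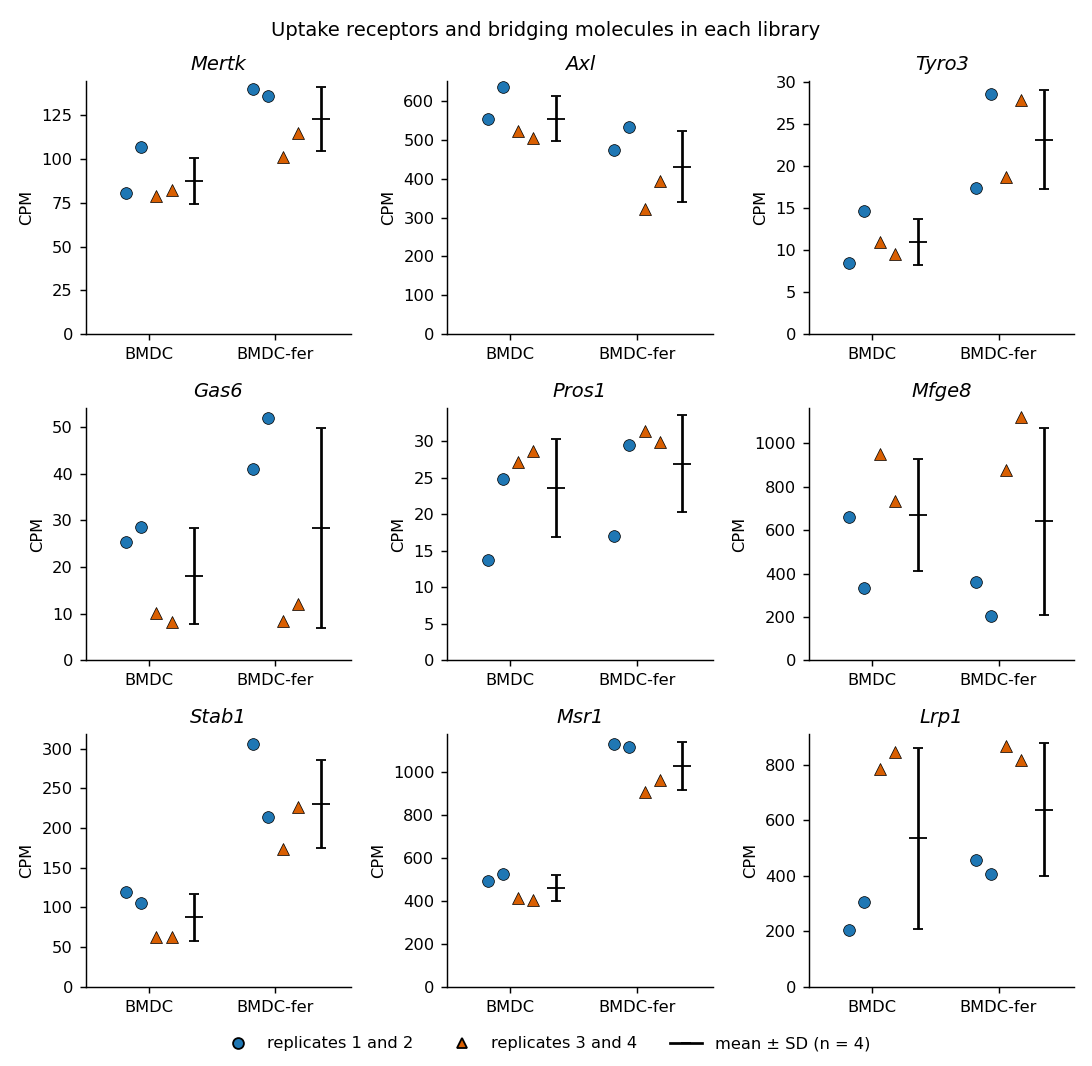
Expression of the 9 detected members in each library, in CPM on a linear axis that starts at 0, for BMDC and BMDC-fer. Circles are replicates 1 and 2, triangles are replicates 3 and 4, and bars show mean ± SD (n = 4). Tyro3, Stab1 and Msr1 do not overlap between groups, while Gas6, Mfge8 and Lrp1 separate mainly by replicate pair.

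Promoter windows from RefSeq (GRCm38.p6, 250 bases before to 50 after the start) were available for 9 of the 10 members, and those of Stab1, Tyro3 and Mertk are shown because they belong to 2 receptors that rose and to Mertk, the TAM receptor nearest to the fold threshold among those not called. Capitals mark the GC box (GGGCGG) and the core of the ETS/PU.1 motif (GAGGAA), each searched on both strands and counted with overlaps. The Stab1 window lies on the minus strand at chr14:31168592-31168891 and covers the annotated start. The Tyro3 window (plus strand, chr2:119799264-119799563) lies inside the GENCODE gene, whose start is placed further upstream. The Mertk window is on the plus strand at chr2:128698665-128698964.
Stab1: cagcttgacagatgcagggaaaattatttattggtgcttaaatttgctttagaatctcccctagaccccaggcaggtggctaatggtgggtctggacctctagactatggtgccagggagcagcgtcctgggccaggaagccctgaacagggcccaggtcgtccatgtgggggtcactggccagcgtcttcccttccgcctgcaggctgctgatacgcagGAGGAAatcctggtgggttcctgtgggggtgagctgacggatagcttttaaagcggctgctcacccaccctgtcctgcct
Tyro3: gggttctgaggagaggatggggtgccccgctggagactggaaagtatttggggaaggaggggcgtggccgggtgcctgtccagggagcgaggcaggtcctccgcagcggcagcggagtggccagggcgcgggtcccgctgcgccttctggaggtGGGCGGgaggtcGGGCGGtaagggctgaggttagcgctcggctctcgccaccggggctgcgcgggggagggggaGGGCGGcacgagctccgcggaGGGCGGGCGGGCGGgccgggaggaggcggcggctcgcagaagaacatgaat
Mertk: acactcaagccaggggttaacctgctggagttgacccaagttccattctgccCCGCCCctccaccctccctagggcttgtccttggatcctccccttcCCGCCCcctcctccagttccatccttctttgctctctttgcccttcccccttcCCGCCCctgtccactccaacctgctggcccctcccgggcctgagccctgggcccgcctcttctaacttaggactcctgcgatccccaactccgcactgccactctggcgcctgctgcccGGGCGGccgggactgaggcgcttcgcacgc
The Stab1 window had 0 GC boxes and 1 ETS/PU.1 core at a GC content of 57.3%. That of Tyro3 had 6 GC boxes, some of which overlap, and 0 ETS/PU.1 cores at 73.3%, and that of Mertk had 4 and 0 at 66%. A GC box occurred in 7 of the 9 member windows and in 35.9% of 27025 windows, and the ETS/PU.1 core in 3 and in 28.3%. The median GC content over all windows was 52.7%, below that of the windows shown, and the shares were not matched for GC content. The direct repeat bound by LXR and the AP-1 site (TGANTCA) were found in 0 of the 9 member windows. Over all windows their shares were 0.0111% and 7.93%. These matches describe letters in short windows and are not binding sites.

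Among the TAM receptors, which signal to dampen inflammation while corpses are taken up, Tyro3 moved most and was the scarcest. In GENCODE M21 on GRCm38, from which all gene positions here are taken, Tyro3 spans 119797733 to 119818104 of chromosome 2. It was at 8.43, 14.7, 11 and 9.48 CPM in BMDC replicates 1 to 4 and at 17.4, 28.6, 18.7 and 27.9 CPM in BMDC-fer replicates 1 to 4. Every BMDC-fer library lay above every BMDC library. The log2 fold change was 1.09 (standard error 0.24, edgeR adjusted p = 0.0237). Permuting the group labels over log2(CPM + 0.05) gave an exact, 2-sided p = 0.0286, the smallest that 4 against 4 libraries allow. It was 0.99 on the log2 scale within pair 1-2 and 1.2 within pair 3-4. The call of Tyro3 was not kept in every fit that left out 1 library, though its log2 fold change stayed at 0.97 to 1.28. The call was lost without BMDC replicate 3, BMDC replicate 4, BMDC-fer replicate 2 or BMDC-fer replicate 4, with edgeR adjusted p = 0.058, 0.0613, 0.065 and 0.0752. Such fits also called fewer genes over all, 565 to 1440 against 1445 with every library.

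Mertk, the TAM receptor best known for clearance of dead cells by macrophages, lies on chromosome 2 from 128698956 to 128802894. It was at 80.9, 107, 79.2 and 82.3 CPM in BMDC and at 140, 136, 101 and 115 CPM in BMDC-fer. The groups overlapped, since BMDC replicate 2 lay above BMDC-fer replicate 3. The difference of 0.49 on the log2 scale, with a standard error of 0.15, missed the threshold (edgeR adjusted p = 0.0592, 2-sided exact permutation p = 0.0571). With the replicate number as a block the edgeR adjusted p of Mertk was 0.0349 and with DESeq2 it was 0.0271, at the same log2 fold change of 0.49, which is under the threshold. Without BMDC replicate 2 Mertk was called (0.62 on the log2 scale, edgeR adjusted p = 0.0322). Pair 1-2 gave 0.56 and pair 3-4 gave 0.44.

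Axl, the TAM receptor bound by GAS6 but not by protein S, lies on chromosome 7 from 25757273 to 25788705. Its levels were 555, 636, 522 and 505 CPM in BMDC and 473, 534, 323 and 395 CPM in BMDC-fer. Only BMDC-fer replicate 2 reached into the range of the untreated cells. At -0.36 on the log2 scale, with a standard error of 0.17, Axl was not called (edgeR adjusted p = 0.184, or 0.0792 under the block). Pair 1-2 gave -0.24 and pair 3-4 gave -0.5. In each same-numbered pair Axl was lower and Mertk higher in BMDC-fer. Scaled to kilobases of exon, the ratio of Axl to Mertk was 5.12 to 5.91 in the BMDC libraries and 2.75 to 3.39 in the BMDC-fer libraries, without overlap. This ratio is a description and was not tested.

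**Figure D2:**
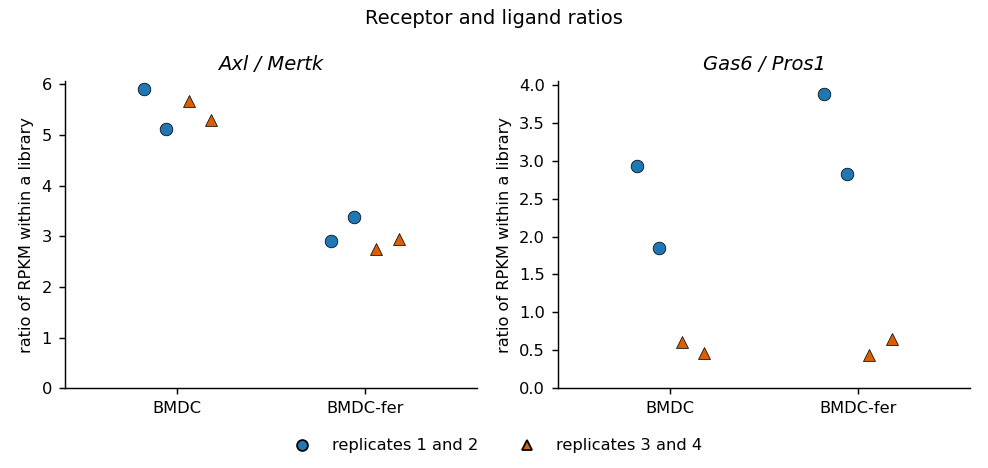
Ratio of Axl to Mertk (left) and of Gas6 to Pros1 (right) within each library, from RPKM values, on linear axes that start at 0. Circles are replicates 1 and 2 and triangles are replicates 3 and 4. The Axl to Mertk ratio separates the groups (5.12 to 5.91 against 2.75 to 3.39), whereas the Gas6 to Pros1 ratio separates the replicate pairs.

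The bridging molecules showed no called change, and they varied more between replicate pairs than between groups. Gas6, a vitamin K-dependent ligand of all TAM receptors on chromosome 8 (13465374 to 13494490), was at 25.3, 28.5, 10.2 and 8.33 CPM in BMDC and at 41, 51.9, 8.46 and 12.1 CPM in BMDC-fer. Replicates 1 and 2 were high in both groups, by 2.9 times the mean of replicates 3 and 4 in BMDC and 4.51 times in BMDC-fer. Over all libraries Gas6 differed by 0.65 on the log2 scale with a standard error of 0.63, which was not called (edgeR adjusted p = 0.517). Within pair 1-2 alone Gas6 was called higher at 0.8 (edgeR adjusted p = 0.011), while pair 3-4 gave 0.16 (edgeR adjusted p = 0.471). The difference between the pairs was not called (edgeR interaction, adjusted p = 0.0865). An overlap of 34 exon bases with Tmem255b on the opposite strand, 1.33% of the exon length, leaves a small part of the count uncertain, since the use of strand is not stated.

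Pros1 encodes protein S, an anticoagulant cofactor that also binds Mertk and Tyro3, and lies on chromosome 16 from 62854307 to 62929346. It was at 13.8, 24.8, 27.1 and 28.6 CPM in BMDC and at 17, 29.5, 31.4 and 29.8 CPM in BMDC-fer. Replicate 1 was the lowest of each group. The log2 fold change was 0.19 (standard error 0.27, edgeR adjusted p = 0.663), with 0.27 and 0.15 in the 2 replicate pairs. The ratio of Gas6 to Pros1 per kilobase was 0.467 to 2.93 in BMDC and 0.433 to 3.88 in BMDC-fer, and in both groups the values of replicates 1 and 2 lay above those of replicates 3 and 4.

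Mfge8, whose product bridges phosphatidylserine to the αv integrins, lies on chromosome 7 from 79133768 to 79149060. Its levels were 659, 332, 953 and 737 CPM in BMDC and 363, 204, 879 and 1120 CPM in BMDC-fer. Replicates 1 and 2 fell below 3 and 4 in both groups, and only replicate 4 was higher in BMDC-fer than in BMDC. Over all libraries the difference was -0.07 on the log2 scale (standard error 0.52, edgeR adjusted p = 0.945), which covers -0.8 within pair 1-2 (edgeR adjusted p = 0.151) and 0.25 within pair 3-4 (edgeR adjusted p = 0.132). The difference between the pairs had an edgeR interaction adjusted p of 0.114.

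The receptors that act without the TAM ligands divided into 2 that rose, 1 that did not pass and 1 that was barely detected. Msr1, which encodes the class A scavenger receptor and lies on chromosome 8 from 39581685 to 39642673, was at 496, 525, 416 and 404 CPM in BMDC. In BMDC-fer it was at 1130, 1120, 909 and 963 CPM, so that each BMDC-fer library exceeded every BMDC library. Its log2 fold change was 1.16 (standard error 0.14, edgeR adjusted p = 0.00344, 2-sided exact permutation p = 0.0286). It was 1.15 within pair 1-2 and 1.2 within pair 3-4, and the call held whichever library was left out (edgeR adjusted p at most 0.0169).

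Stab1 had the steepest rise of the 9 tested members. The gene, on chromosome 14 from 31139013 to 31168641, encodes stabilin-1, a scavenger receptor for phosphatidylserine and for modified lipoproteins. It was at 119, 106, 62.9 and 62.6 CPM in BMDC and at 306, 214, 173 and 227 CPM in BMDC-fer, again without overlap. The log2 fold change was 1.39 (standard error 0.26, edgeR adjusted p = 0.014, 2-sided exact permutation p = 0.0286). Pair 1-2 gave 1.22 and pair 3-4 gave 1.69, and the call was kept in all 8 fits that left out 1 library (edgeR adjusted p at most 0.0468). The gene shares 112 exon bases, 1.09% of its exon length, with Nt5dc2 on the opposite strand.

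Lrp1, on chromosome 10 from 127538161 to 127621148, was set mainly by the replicate pair. It was at 204, 304, 784 and 845 CPM in BMDC and at 456, 408, 868 and 818 CPM in BMDC-fer. All 4 libraries of replicates 3 and 4 lay above the other 4. Between groups Lrp1 differed by 0.26 on the log2 scale with a standard error of 0.47 and was not called (edgeR adjusted p = 0.746). Within pair 1-2 alone Lrp1 was called higher, at 0.77 (edgeR adjusted p = 0.0284), while pair 3-4 gave 0.06. Lrp1 was the 1 member of 9 whose change differed between the pairs, by -0.72 on the log2 scale (standard error 0.23, edgeR interaction adjusted p = 0.0341). Over all tested genes 37.8% passed this test, so 1 of 9 is below the background. The difference in Lrp1 was no longer called without BMDC replicate 3 or 4 or without BMDC-fer replicate 1, 3 or 4 (edgeR adjusted p = 0.0736 to 0.113), nor under scaling by library size alone (0.12).

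Timd4, the TIM-4 receptor of resident macrophages on chromosome 11 (46810800 to 46844332), had 0 counts in 7 libraries and 1 count in BMDC-fer replicate 2. It was under the floor of 3 counts in every library, a floor of 0.0607 to 0.0785 CPM, and it did not enter the test. The floor covers counting error only.

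**Figure D3:**
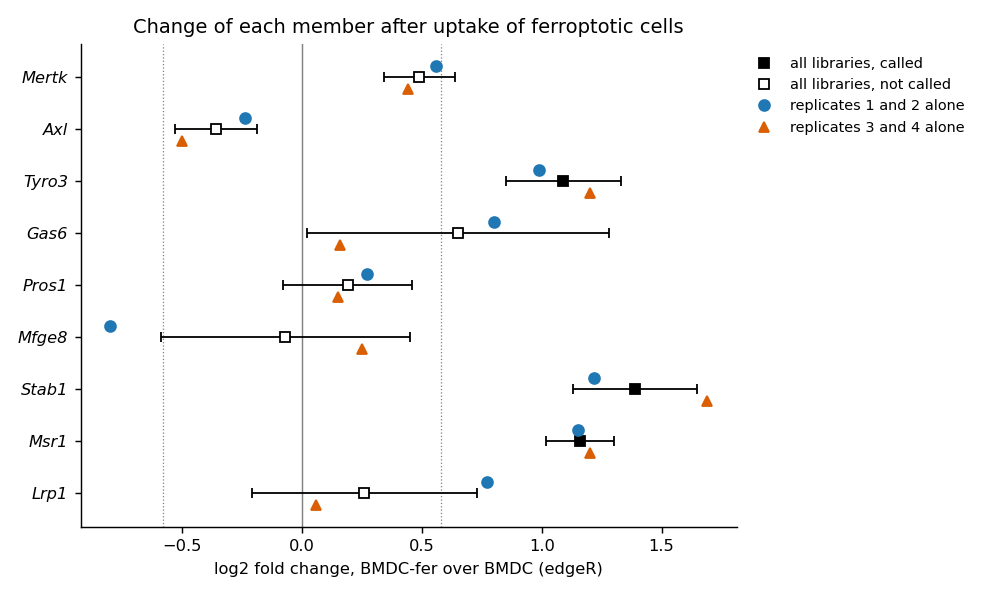
Log2 fold change of BMDC-fer over BMDC for the 9 tested members. Squares with bars are the edgeR estimate over all 8 libraries ± a standard error derived from its F statistic, filled where called. Circles are replicates 1 and 2 alone, triangles replicates 3 and 4 alone, and dotted lines mark the threshold of 0.58. Msr1, Stab1 and Tyro3 lie at 1.09 or more with both pairs near by, while Mfge8 lies at -0.8 in one pair and 0.25 in the other.

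To set the members side by side, counts were scaled to exon length (RPKM, on TMM-scaled library sizes). In untreated BMDC Mfge8 led with 143 ± 54.9 RPKM (SD, n = 4), followed by Axl with 110 ± 11.5 and Msr1 with 72.6 ± 9.32 RPKM. Lrp1 was at 30.1 ± 18.5 and Mertk at 20.2 ± 3.04 RPKM. Below them stood Stab1 at 8.51 ± 2.82, Gas6 at 7.1 ± 4.04, Pros1 at 5.77 ± 1.64 and Tyro3 at 1.76 ± 0.442 RPKM. Neighbours in this order overlapped between libraries for Mfge8 and Axl, for Lrp1 and Mertk, for Stab1 and Gas6, and for Gas6 and Pros1, whereas Axl lay above Msr1, Msr1 above Lrp1, Mertk above Stab1 and Pros1 above Tyro3 in every BMDC library.

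In BMDC-fer Msr1 had the highest mean, 162 ± 17.6 RPKM (SD, n = 4), ahead of Mfge8 at 136 ± 91.3 and Axl at 85.7 ± 18.3 RPKM. Msr1 and Mfge8 overlapped, as did Mfge8 and Axl. Axl lay above Lrp1 (36 ± 13.5 RPKM) in every library, and Lrp1, Mertk (28.4 ± 4.17) and Stab1 (22.4 ± 5.39 RPKM) each overlapped with the next gene down. Gas6 was at 11.1 ± 8.4, Pros1 at 6.58 ± 1.63 and Tyro3 at 3.74 ± 0.955 RPKM, so Tyro3 had the lowest mean of the 9 in both groups.

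**Figure D4:**
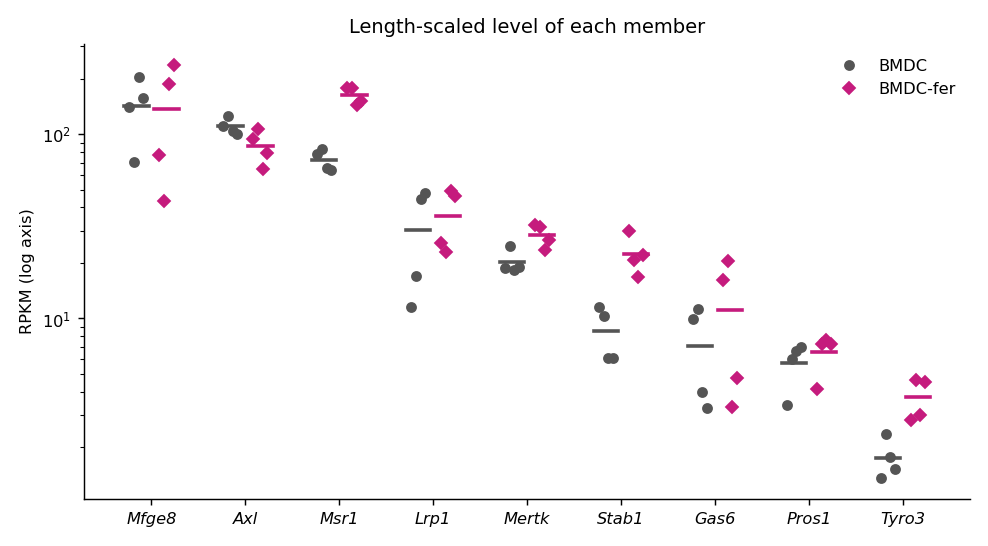
Level of each detected member in RPKM on a log axis, ordered by the BMDC mean. Grey circles are BMDC libraries, magenta diamonds are BMDC-fer libraries, and lines are group means (n = 4). Msr1 moves from 72.6 to 162 RPKM and becomes the highest mean, and Tyro3 stays the lowest.

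Other genes of dead-cell uptake, 136 in 9 lists, were read in the same fit. Of the 118 that were tested, 10 were called, which is 8.47% against 9.38% of all genes, 5 higher and 5 lower, and their median log2 fold change was 0.15. With the replicate block 17 were called (14.4% against 13% of all genes), 12 higher and 5 lower. Among 14 phosphatidylserine receptors and related genes, a list that also held integrin chains and Clec12a, 1 was called. Cd300lb, an activating receptor of the CD300 family, rose from 74.9 to 162 CPM (log2 fold change 1.11, edgeR adjusted p = 0.0226), with 0.65 within pair 1-2 and 1.73 within pair 3-4. The most abundant genes of this list, the integrin chain Itgb1 (117 RPKM over all libraries) and Cd300lf (77.5 RPKM), were not called.

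Of 12 scavenger receptors 1 was called. Olr1, the receptor LOX-1 for oxidised lipoproteins, rose from 19.1 to 47.8 CPM (log2 fold change 1.32, edgeR adjusted p = 0.047). With the replicate block Cd36, Colec12 and Marco were called higher too (edgeR adjusted p = 0.0218, 0.00917 and 0.022). Without the block their edgeR adjusted p was 0.393, 0.062 and 0.313. The list's median log2 fold change was 0.57, and its most abundant genes were Cd68 at 477 and Cd36 at 115 RPKM. None of 14 other bridging molecules and opsonins was called by edgeR or by DESeq2, while 4 were higher at an unadjusted p under 0.05. At that level 2118 of all 15411 tested genes were higher. Lgals3 (galectin-3) had the highest level of this list at 2350 RPKM and differed by 0.58 on the log2 scale (edgeR adjusted p = 0.113), and the complement gene C1qb was at 567 RPKM with 0.57 (edgeR adjusted p = 0.355).

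In the engulfment machinery 1 of 23 genes was called. Dock1, which with ELMO proteins activates the small GTPase RAC1, fell from 38.8 to 25 CPM (log2 fold change -0.64, edgeR adjusted p = 0.0282). With the block Nck1, an adaptor of actin assembly, was called higher (edgeR adjusted p = 0.0377, against 0.0583 without the block). The actin regulators Arpc2 (285 RPKM) and Cdc42 (234 RPKM) were the most abundant and were not called. Among 7 genes of the inhibitory don't-eat-me axis, Sirpa, the receptor for CD47 and the most abundant at 202 RPKM, rose from 789 to 1190 CPM (log2 fold change 0.6, edgeR adjusted p = 0.0153). Lilrb4a (129 RPKM) was not called. With the block Siglecg was called lower (log2 fold change -2.52, edgeR adjusted p = 0.00789, against 0.0802 without the block).

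Among 13 LDL receptor family genes and Lrp1 partners, Sorl1, a sorting receptor, fell from 122 to 57.7 CPM (log2 fold change -1.08, edgeR adjusted p = 0.0433). Lrpap1, the chaperone of Lrp1, was called higher with the block (edgeR adjusted p = 0.0272, against 0.332 without the block). Plaur (267 RPKM) and Hsp90b1 (166 RPKM) were the most abundant of the list and were not called. Of 7 nuclear receptors, Nr1h3 was called. It encodes LXRα, an oxysterol receptor with Mertk among its known targets, and rose from 5.6 to 15.2 CPM (log2 fold change 1.44, edgeR adjusted p = 0.016). Nr1h2 (26.9 RPKM) and Rxra (13.1 RPKM) were more abundant and not called.

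Of 12 genes of TAM shedding and feedback, Ifnar1, a chain of the interferon receptor that TAM signalling uses, was called higher (log2 fold change 0.59, edgeR adjusted p = 0.0253). Timp3, an inhibitor of the sheddase ADAM17, was called lower (log2 fold change -1.94, edgeR adjusted p = 0.0334), but not with the block (edgeR adjusted p = 0.0641). Pik3r1, a regulatory subunit of PI3-kinase, fell from 156 to 83.7 CPM (log2 fold change -0.9, edgeR adjusted p = 0.0193). Grb2 (99.1 RPKM) and the sheddase Adam10 (35.5 RPKM) were the most abundant and were not called. Among 16 genes of LC3-associated phagocytosis 1 was called. Uvrag, a subunit of a VPS34 complex, fell from 69.5 to 39.8 CPM (log2 fold change -0.8, edgeR adjusted p = 0.0147), and the NADPH oxidase genes Cyba (962 RPKM) and Cybb (117 RPKM) were not called.

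**Figure D5:**
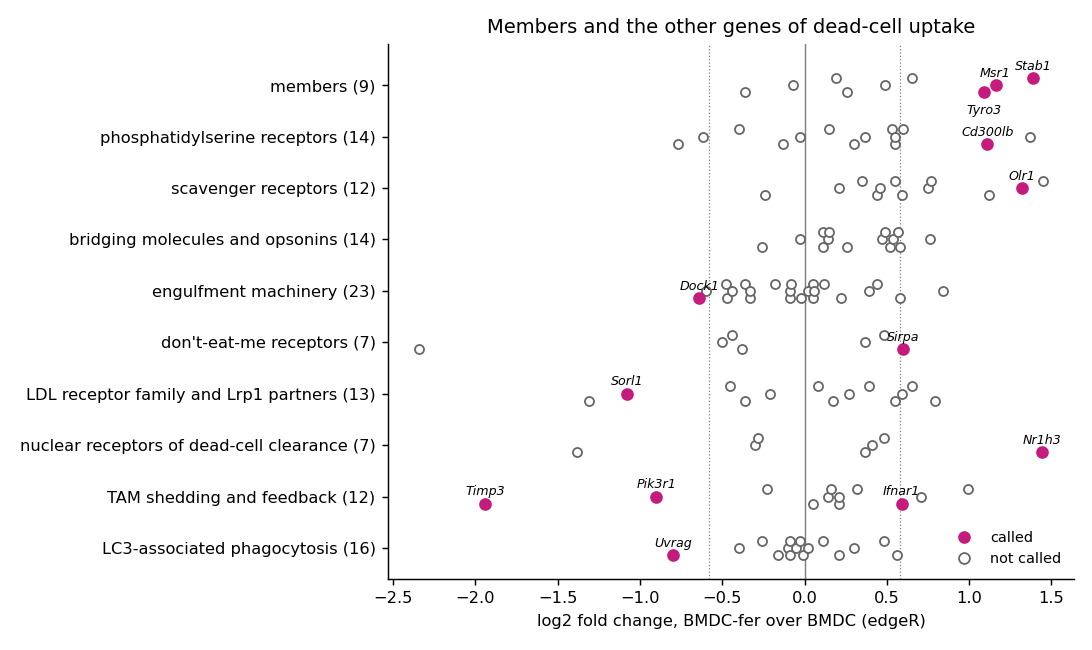
Log2 fold change of BMDC-fer over BMDC (edgeR, all 8 libraries) for the tested members and for the tested genes of each list, with the number of genes in brackets. Filled magenta points are called and named, open points are not called, dotted lines mark the threshold of 0.58, and points are spread vertically for legibility only. The 3 called members lie at 1.09 or more, and the called genes of the lists lie on both sides of 0.

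Several of these calls were lost in fits with 1 library left out, which also called fewer genes over all (565 to 1440, against 1445). Of the 8 fits that left out 1 library, Nr1h3 kept its call in 8 (edgeR adjusted p at most 0.0485). Uvrag lost it without BMDC-fer replicate 4 (0.0545), Sirpa without BMDC replicate 3 or BMDC-fer replicate 2 (at most 0.051), Pik3r1 without BMDC-fer replicate 3 or 4 (at most 0.0663), and Cd300lb without BMDC-fer replicate 2, 3 or 4 (at most 0.0674). Ifnar1 kept the call only without BMDC replicate 1 or 2 or BMDC-fer replicate 3, and Dock1 only without BMDC replicate 1 or BMDC-fer replicate 2. Olr1 kept it only without BMDC replicate 4, Sorl1 only without BMDC-fer replicate 1 and Timp3 only without BMDC replicate 1, with edgeR adjusted p otherwise up to 0.112, 0.101 and 0.0873. Scaled by library size alone, Cd300lb, Sirpa and Ifnar1 also lost their calls.

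For each tested member, the genes with the most similar profile were found by the root mean square difference of centred log2 CPM over the 8 libraries. The closest match of all was Igsf6, which differed from Msr1 by 0.0473, followed for Msr1 by Tmem206 (0.0952). Stab1 was nearest to Gm10134 (0.143) and Tubb1 (0.165), and Tyro3 to Apobec1 (0.168) and Cdk20 (0.179). These 6 genes were called higher, as their members were. The profiles include the difference between the groups, so this follows from the matching and is no separate result. Mertk was nearest to Clcn7 (0.0787) and Mettl8 (0.0859), and Axl to Ptbp1 (0.0831) and Miip (0.0879). Gas6 was nearest to a pair of interferon-inducible genes of the same family, Ifi206 (0.148) and Ifi211 (0.157). The profiles also include the difference between replicate pairs, which for Gas6 was 2.9 times in BMDC and 4.51 times in BMDC-fer. Shared regulation was not tested. Pros1 was nearest to Spats2 (0.0762) and Prune2 (0.145), Lrp1 to Sirpb1c (0.117) and Tnfrsf26 (0.126), and Mfge8 to Thbs3 (0.272) and Gm20632 (0.282). The matches of Mertk, Axl, Gas6, Pros1, Lrp1 and Mfge8 were not called, which follows from the matching in the same way. Of these, Clcn7 missed only the fold threshold (log2 fold change 0.48, edgeR adjusted p = 0.0457).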

How the data were processed

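According to the methods and the submitters' processing notes, reads were mapped with HISAT2 to mm10 and counted per gene with featureCounts. CASAVA and DESeq2 are also named. The authors deposited raw counts of mouse genes for 8 libraries. Which annotation was used, and how strand and multi-mapping reads were treated, is not given in the sources used here. Counts on the human genome were not analysed here. Grouping of libraries was by title.

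Symbols were found for 55141 of 55487 identifiers, and exon lengths came from GENCODE M21. Total counts were 39326672 to 50532209 per library. Analysis used R 4.3.3 with edgeR 4.0.16 and DESeq2 1.42.0. The filter filterByExpr (count minimum 10) kept 15411 genes, and CPM values rest on TMM-scaled library sizes. The design had the group alone. edgeR's test gives no standard error, so each was derived as the absolute log2 fold change divided by the square root of the F statistic. Libraries of 1 group differed by 9 or more in chi-square per gene, so no library was a copy of another. The value was 9 to 40.9 within pairs 1-2 and 3-4 and 133 to 346 between them. The group-only fit and the permutation nevertheless treat the 4 libraries of a group as separate replicates. Deviations from the group means correlated between same-numbered libraries with r = 0.446, 0.355, 0.313 and 0.343 across genes, each above 0.1. BMDC 4 with BMDC-fer 3 gave 0.38 and BMDC 3 with BMDC-fer 4 gave 0.343, so for replicates 3 and 4 the data tie the pair and not the single numbers. The sources state no pairing. The difference between replicate pairs was tested as an interaction term.

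Named were all members, up to 3 rises and 3 falls among called genes of each list, its 2 most abundant genes, and the 2 nearest profiles of each member. Members and lists were chosen with earlier results of these data known, also that replicates 1 and 2 lie apart from 3 and 4. Genes called with the block alone, and the marker genes, were named after their values were seen, and some of the former are not reported here by name. Alternatives were other normalizations and filters, DESeq2, a replicate block, a replicate pair covariate, single libraries left out and each replicate pair alone. The tests were also run on simulated counts that held no baseline difference between replicate pairs. That check therefore does not show how the tests perform where the pairs lie apart, as they do here.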

Additional observations from a re-analysis of the deposited data

Results flagged for a closer look

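Dixon's test compares the distance between an extreme library and its neighbour with the spread of the whole group, and 3 of the 19 groups tested held a library past its critical value. Chance alone gives about 1 in 20, here 0.95. Mertk was high in BMDC replicate 2 (0.888), at 107 CPM against 79.2 to 82.3 CPM in the other BMDC libraries. Pros1 was low in BMDC-fer replicate 1 (0.868), at 17 CPM against 29.5 to 31.4 CPM, and it was lowest in replicate 1 of the untreated cells as well. Timd4 in BMDC-fer replicate 2 also passed (1), where the gap is a count of 1 against 0.

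The change of Lrp1 differed between the replicate pairs by -0.72 on the log2 scale (edgeR interaction adjusted p = 0.0341). The mean of BMDC was 254 CPM in replicates 1 and 2 and 814 CPM in replicates 3 and 4, and that of BMDC-fer was 432 and 843 CPM. What separates the replicate pairs is not given in the sources, and the cause was not tested.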

How the results depend on the processing

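The number of members called was 3 in every alternative that kept all libraries, 4 in replicates 1 and 2 alone, 3 in replicates 3 and 4 alone, and 2 to 4 with 1 library left out. Msr1 and Stab1 kept their calls in all 18 alternatives. Tyro3 lost its call in 5, namely with 1 of 4 libraries left out and in replicates 1 and 2 alone (edgeR adjusted p = 0.0595). The sign of Mfge8 turned without BMDC replicate 3 (0.15), without BMDC-fer replicate 1 (0.14) or 2 (0.24) and in replicates 3 and 4 alone (0.25), and that of Lrp1 without BMDC replicate 1 (-0.01). With 1 library left out Mfge8 ranged from -0.47 to 0.24 and Lrp1 from -0.01 to 0.57. None of these values was called. The replicate block changed the call of 0 members.

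Over all genes, 1445 were called, and 2000 with the replicate block. DESeq2 called 2261, a replicate pair covariate gave 2815, replicates 1 and 2 alone 3062 and replicates 3 and 4 alone 5604, and leaving out 1 library gave 565 to 1440. The number of members whose change differed between the pairs was 1, against 0 under library size alone (2 at an unadjusted p under 0.05, both positive, where the 2 at that level with TMM were both negative), 4 without the filter and 2 with DESeq2, and 0 to 3 with 1 library left out. The causes were not tested. With the replicate pairs apart, the standard errors derived from the edgeR fit were 0.47 to 0.63 for Gas6, Lrp1 and Mfge8. The replicate block lowered them to 0.2, 0.21 and 0.26, and the log2 fold changes of 0.47, 0.42 and -0.27 were not called (edgeR adjusted p = 0.164, 0.212 and 0.48).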
